A study of Mus musculus with 4 samples.

Results

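Messenger RNA of 9 genes of the hedgehog pathway was followed in iMOP cells, an immortalized line from mouse otic progenitors (the cells that give rise to the neurons and sensory epithelium of the inner ear). The members were chosen by name, as the hedgehog receptors, binding proteins and GLI factors: Hhip, Ptch1, Smo, Sufu, Gli1, Gli2, Gli3, Boc and Gas1, which are 9 of the 49997 gene rows in the deposited tables. The choice was made with the difference between the groups in view, so that difference is given below as a description: counting intervals cover the reads of single libraries, and nothing is read from how many members a fit across all genes called on it. The libraries labelled neuron came from wild-type iMOP cells in Neurobasal medium to which 1 µM of the CDK2 inhibitor K03861 had been added (CDK2 is a kinase that drives cell division). The libraries labelled proliferating came from wild-type iMOP cells in DMEM/F12 medium with 20 ng/ml bFGF, a growth factor. Each group had 2 libraries, numbered 1 and 2, from 1 cell line, and neither the time in the neuronal medium nor separate cultures were given, so p-values measure only the spread between these libraries.

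Hedgehog ligands bind the receptor Ptch1, which otherwise holds back the membrane protein Smo. Freed Smo acts through the primary cilium on Sufu and the GLI factors, of which Gli1 and Gli2 mainly activate genes and Gli3, once trimmed, mainly represses them. Boc and Gas1 help ligands reach Ptch1, while Hhip binds ligands at the cell surface and takes them out of action, and Hhip, Ptch1 and Gli1 are themselves induced by the signal in many tissues. In the embryonic inner ear, hedgehog signalling patterns the ventral part of the otic vesicle and keeps cochlear progenitors immature.

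Depth and library quality limited every value. Ribosomal RNA and similar genes took 88.2% and 92.6% of counts in the neuron libraries and 90.7% and 98.1% in the proliferating libraries, which left 3241915 and 617872 counts in the neuron libraries and 292302 and 614465 in the proliferating libraries, in the order of their numbers. Levels are given as CPM, counts scaled to 1000000 of those remaining counts, and 0 counts allows, at 3 counts, up to 0.925, 4.86, 10.3 and 4.88 CPM in neuron 1, neuron 2, proliferating 1 and proliferating 2 (counting error only). The labels of the groups went against most marker genes of dividing cells. Both neuron libraries lay above both proliferating libraries for 6 of 8 of them on CPM and for 7 of 8 after TMM scaling, and the groups are called by their labels throughout. In the neuron libraries the 8 division markers summed to 2159 and 3376 CPM, against 257 and 521 CPM in the proliferating libraries, and 10 neuronal markers summed to 1652 and 1185 CPM in the neuron libraries, against 2610 and 2537 CPM in the proliferating libraries. Of the otic progenitor markers, Sox2 and Nes were well detected, while Pax8 had 0 counts and Pax2 had 1 count in all libraries together. Log2 CPM correlated across genes more by number (0.78 between neuron 1 and proliferating 1, 0.82 between neuron 2 and proliferating 2) than by group (0.50 between the neuron libraries, 0.40 between the proliferating libraries), so each comparison of the groups is also given within each number.

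Hhip, the ligand-binding antagonist (chromosome 8, 79965851 to 80058006 on the minus strand, mm10), had 200 and 25 counts in the neuron libraries and 0 and 2 counts in the proliferating libraries. These are 61.7 and 40.5 CPM in the neuron libraries (mean 51.1 ± 15.0, SD, n = 2) and 0 and 3.25 CPM in the proliferating libraries (1.63 ± 2.30, SD, n = 2). Both neuron libraries were high, both proliferating libraries lay at or under the limit that 0 counts allows, and the groups did not overlap. Among all 9009 tested genes, 9.41% had, after TMM scaling, both neuron libraries above both proliferating libraries, and nothing is read from this share, since Hhip was chosen on this contrast. Within number 1 the level was at least 4.84-fold higher in neuron, the lower end of the exact conditional 95% interval for counting error. Taking 3 counts as the limit for proliferating 1 gave 6.01-fold. At the neuron 1 level, proliferating 1 would have held 18.0 Hhip counts at its own depth, and it held 0. Within number 2 the level in neuron was 12.4 times that in proliferating, with an exact conditional 95% interval of 3.10 to 108 for counting error. In edgeR the log2 fold change of neuron over proliferating came to 4.55 (SE 1.53, n = 2 each), and it is no bound because 1 library was at 0. In bulk RNA, more cells with Hhip and more Hhip RNA per cell cannot be told apart.

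The division markers moved together with Hhip, and their part in its difference was not tested. The 9 mesenchyme markers summed to 90.7 and 46.9 CPM in the neuron libraries and to 109 and 43.9 CPM in the proliferating libraries, mostly Pdgfra (79.3 and 43.7 CPM in neuron, 106 and 39.1 CPM in proliferating), with Col1a2, Lum and Twist2 at 0 counts in all 4 libraries. The 4 endothelial markers summed to 1.85 and 12.9 CPM in the neuron libraries and to 3.42 and 4.88 CPM in the proliferating libraries, with Pecam1 and Cdh5 at 0 counts. The 7 glia markers, Olig2 among them, summed to 349 and 589 CPM in the neuron libraries and to 1105 and 1396 CPM in the proliferating libraries. After TMM scaling, 2 of the 5 tested glia markers lay wholly lower in neuron and 1 wholly higher, against 8.5% and 9.41% of all tested genes. The longest Hhip transcript had a GC content of 41.2%, below the median of 48.8% over tested genes, and log2 fold change fell with GC content across 8671 genes (Spearman rho -0.43, a description over genes of the same libraries). After a correction for GC content, added after the data were seen, the Hhip log2 fold change was 4.34 (SE 1.15). Within number 1 Hhip ranked 1 of 9009 tested genes by log2 ratio, and within number 2 it ranked 65. Nothing is read from these ranks, since Hhip was chosen on this contrast. The rank within number 1 also rests on a ratio to 0 counts in proliferating 1.

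**Figure D1:**
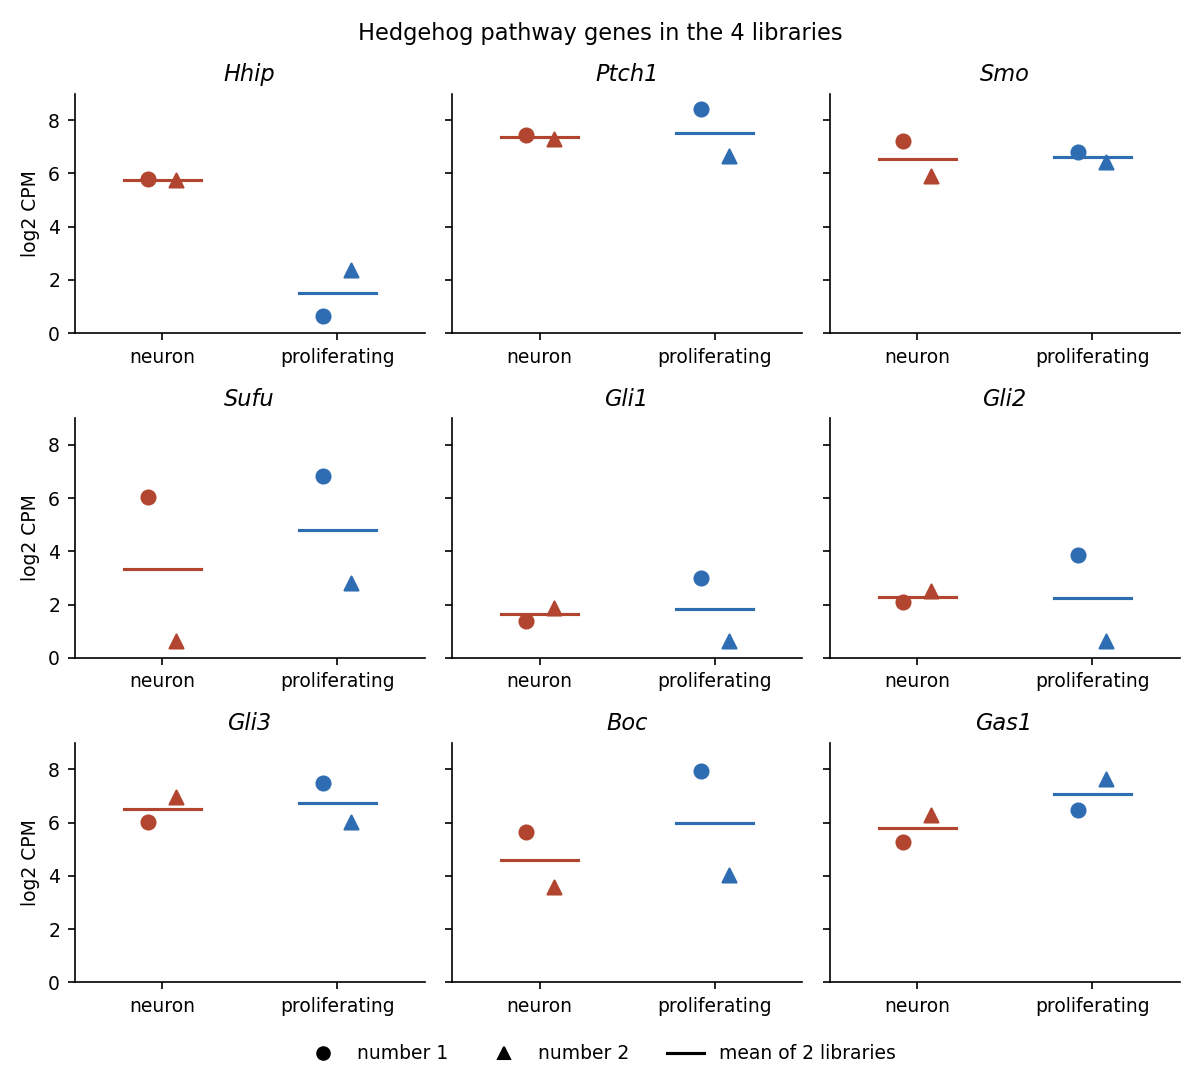
Log2 CPM (TMM scaling, prior count 2) of the 9 hedgehog pathway genes in the neuron (red, left) and proliferating (blue, right) libraries. Circles are number 1, triangles number 2, and bars the mean of 2 libraries. Only Hhip lies wholly higher in neuron and only Gas1 wholly lower, while Sufu and Boc separate by number.

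The 300 bases around the start sites of Hhip and Gas1, the 2 members whose groups did not overlap, and of Ptch1, the receptor gene that hedgehog signalling induces, are shown because binding sites of GLI factors near a start site are a known route of such induction. They are RefSeq sequences of GRCm38.p6, from 250 bases before to 50 after the start, written on the strand of the gene, with the GLI core CCACCC (or GGGTGG, its reverse complement) in capitals. Hhip lies at chr8:80057959-80058258 (minus strand), Ptch1 at chr13:63565686-63565985 (minus strand) and Gas1 at chr13:60177486-60177785 (minus strand). The Ptch1 window belongs to a RefSeq start site that lies 7863 bases inside the gene as GENCODE places it, so it does not cover the outermost start.
Hhip: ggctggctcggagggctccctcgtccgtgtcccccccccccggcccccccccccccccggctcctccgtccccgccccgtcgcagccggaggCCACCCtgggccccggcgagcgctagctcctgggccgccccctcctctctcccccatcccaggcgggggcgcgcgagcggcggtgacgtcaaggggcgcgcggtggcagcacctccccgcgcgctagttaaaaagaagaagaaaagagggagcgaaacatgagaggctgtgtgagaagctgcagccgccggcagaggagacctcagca
Ptch1: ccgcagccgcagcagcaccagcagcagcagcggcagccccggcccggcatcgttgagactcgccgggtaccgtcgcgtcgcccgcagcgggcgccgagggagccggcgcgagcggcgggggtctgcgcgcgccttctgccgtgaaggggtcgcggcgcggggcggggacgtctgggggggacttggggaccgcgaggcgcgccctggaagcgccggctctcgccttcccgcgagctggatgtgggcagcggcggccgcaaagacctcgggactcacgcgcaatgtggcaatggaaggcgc
Gas1: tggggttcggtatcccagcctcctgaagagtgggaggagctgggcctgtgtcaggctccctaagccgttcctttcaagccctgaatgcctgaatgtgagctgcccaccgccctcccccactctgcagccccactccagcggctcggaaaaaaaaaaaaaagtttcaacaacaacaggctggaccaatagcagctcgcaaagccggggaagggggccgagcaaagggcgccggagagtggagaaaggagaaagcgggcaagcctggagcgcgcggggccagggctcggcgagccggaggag
The Hhip window held 1 core match, at base 93, and the Ptch1 and Gas1 windows held 0. Sequences were matched for 7 of the 9 members. Among them, Smo and Gli3 also had 1 core match each, Gli2 had 2, and Sufu had 0. Of all 32851 windows, 31.5% held the core. The 9-letter GLI consensus GACCACCCA, which contains the core, was found on neither strand in the 7 windows and in 0.253% of all windows. These matches describe letters in short windows and say nothing of binding.

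The receptor Ptch1 (chromosome 13, 63508328 to 63573598, minus strand) had 645 and 74 counts in the neuron libraries and 104 and 54 in the proliferating libraries, or 199 and 120 CPM in neuron and 356 and 87.9 CPM in proliferating. The neuron values lay between the proliferating values. Within number 1 the level in neuron was 0.559 times that in proliferating (95% counting interval 0.454 to 0.695), and within number 2 it was 1.36 times (0.947 to 1.97). The log2 fold change was -0.42 (SE 1.01), within the spread between libraries. Smo, the transducer that Ptch1 restrains (chromosome 6, 29735503 to 29761365, plus strand), had 548 and 28 counts in neuron and 34 and 46 in proliferating, or 169 and 45.3 CPM in neuron and 116 and 74.9 CPM in proliferating. Here the proliferating values lay between the neuron values, and the ratios within the numbers were 1.45 (1.03 to 2.12) and 0.605 (0.364 to 0.989). Its log2 fold change was 0.08 (SE 0.98). For Ptch1 and for Smo the ratio thus had opposite directions in number 1 and number 2, but the Ptch1 interval within number 2 spans equality. The Smo intervals end close to equality, at 1.03 and 0.989. The Ptch1 and Smo intervals were computed on CPM without TMM scaling, and whether those near equality span it can depend on the scaling.

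The co-receptor Gas1 (chromosome 13, 60174405 to 60177365, minus strand) was the member that was lower in neuron without overlap. It had 139 and 37 counts in the neuron libraries and 27 and 108 in the proliferating libraries. These are 42.9 and 59.9 CPM in neuron (51.4 ± 12.0, SD, n = 2) and 92.4 and 176 CPM in proliferating (134 ± 59.0, SD, n = 2). The level in neuron was 0.464 times that in proliferating within number 1 (0.306 to 0.729) and 0.341 times within number 2 (0.228 to 0.499). Of the tested genes, 8.5% had both neuron libraries below both proliferating libraries, and nothing is read from that share here either. Its log2 fold change was -1.35 (SE 1.01), and -0.61 without proliferating 2. On the log2(RPKM + 0.1) scale it was -0.16, where the median of all tested genes was 0.81, against -0.03 in the edgeR fit. Boc, a co-receptor of the immunoglobulin family (chromosome 16, 44485049 to 44558897, minus strand), had 183 and 5 counts in neuron and 74 and 8 in proliferating, or 56.4 and 8.09 CPM in neuron and 253 and 13.0 CPM in proliferating. Both libraries numbered 1 were high and both numbered 2 were low, so the groups overlapped. Within number 1 the neuron level was 0.223 times that in proliferating (0.169 to 0.296), and within number 2 the ratio was 0.622 with an interval of 0.160 to 2.15 that spans equality. The log2 fold change of Boc was -2.05 (SE 1.30), and without proliferating 1 it was 1.07 (SE 1.91).

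Sufu, which binds GLI factors and holds them back (chromosome 19, 46396896 to 46488804, plus strand), had 244 and 0 counts in the neuron libraries and 34 and 3 in the proliferating libraries. In CPM this was 75.3 and 0 in neuron and 116 and 4.88 in proliferating. Sufu was thus measured well in the libraries numbered 1 and lay at or under the limit of 3 counts in those numbered 2, where no fold between the groups can be given. Within number 1 the neuron level was 0.647 times that in proliferating (0.451 to 0.956).

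Of the GLI factors, Gli3 (chromosome 13, 15463235 to 15730026, plus strand) carried most counts. It had 239 and 60 counts in neuron and 54 and 35 in proliferating, or 73.7 and 97.1 CPM in neuron and 185 and 57.0 CPM in proliferating. The neuron values lay between the proliferating values, and the ratio within number 1 was 0.399 (0.296 to 0.547) while that within number 2 was 1.70 (1.11 to 2.67). The log2 fold change was -0.35 (SE 1.00). Gli2, the main activator (chromosome 1, 118834132 to 119053619, minus strand), had 10 and 2 counts in neuron and 4 and 0 in proliferating. Gli1, the activator that is also a target (chromosome 10, 127329882 to 127341974, minus strand), had 4 and 1 counts in neuron and 2 and 0 in proliferating. Gli1 and Gli2 were under the count filter and were not tested. Within number 1 the Gli2 level in neuron was 0.225 times that in proliferating (0.065 to 0.985), on 10 and 4 counts. Within number 2, at 2 and 0 counts of Gli2, no fold can be given. The Gli1 interval within number 1, 0.026 to 1.99, spans equality. Of the counts of the 3 GLI genes, Gli3 took 94.5% (exact 95% interval 90.9 to 96.9) and 95.2% (86.7 to 99.0) in the neuron libraries and 90.0% (79.5 to 96.2) and 100% (90.0 to 100) in the proliferating libraries. Per kilobase of gene length, Gli3 made up 92.3% and 93.1% of the GLI signal in neuron and 85.8% and 100% in proliferating. Gm6556, a transcript on the opposite strand within Gli3, had 8 and 0 counts in neuron and 3 and 0 in proliferating, and the strand setting of the counting was not given in the sources used here.

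On levels per kilobase of gene length, the order of the members differed between libraries. Smo led in neuron 1 with 31.2 CPM per kilobase, Gas1 in neuron 2 with 19.1, Boc in proliferating 1 with 57.2 and Gas1 in proliferating 2 with 56.1. Ptch1 ranked 2, 2, 2 and 3 in the same order of libraries. Gli1 and Gli2 held ranks 7 to 9 in every library, on 10 or fewer counts. Hhip reached 6.76 and 4.43 CPM per kilobase in neuron, against 0 and 0.356 in proliferating, so that the Hhip level was 0.261 and 0.284 times the Ptch1 level in the neuron libraries and 0 and 0.0311 times that level in the proliferating libraries.

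**Figure D2:**
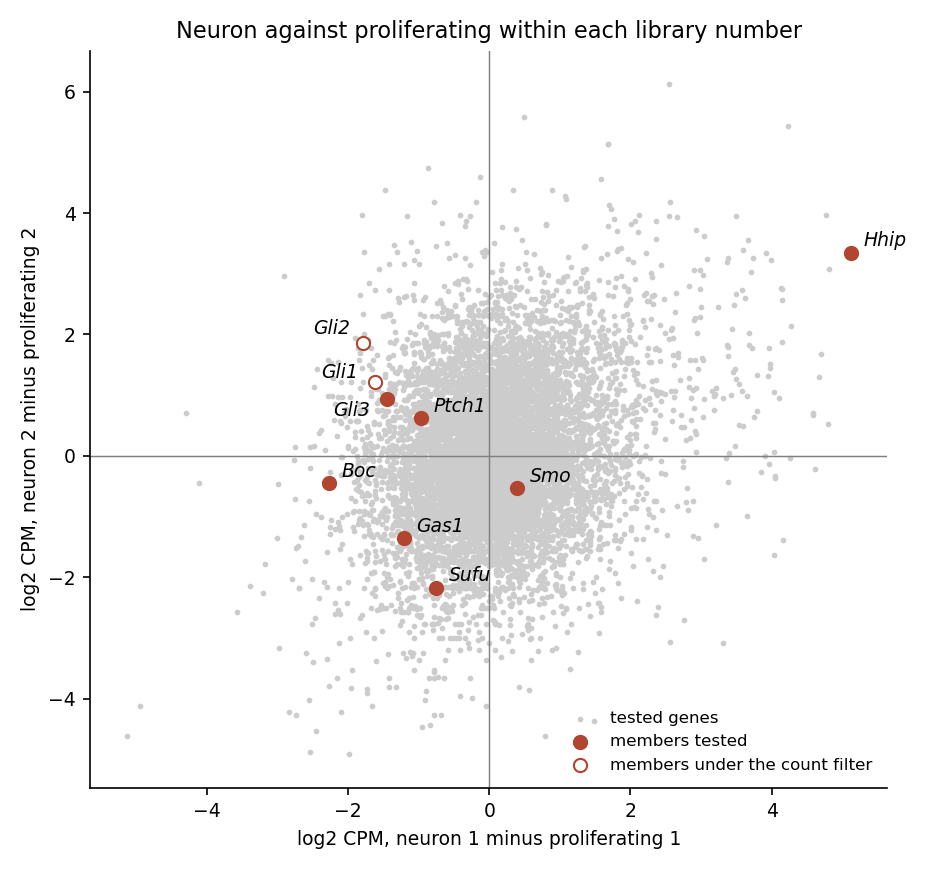
Difference of log2 CPM, neuron minus proliferating, within number 1 (horizontal) and number 2 (vertical). Grey points are the 9009 tested genes, filled red points the 7 tested members and open points Gli1 and Gli2. Hhip lies at 5.12 and 3.35, Gas1, Boc and Sufu lie below 0 on both axes, and Ptch1, Gli1, Gli2, Gli3 and Smo have opposite signs. Within number 2, Sufu, Gli1 and Gli2 had 3 or fewer counts in each library, so their signs there give no direction. The counting intervals of Ptch1 and Boc within number 2 span equality. Unlike the points, these intervals were computed on CPM without TMM scaling. For Ptch1 and Smo, whether an interval spans equality can depend on the scaling.

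In the fit with group alone, edgeR's quasi-likelihood test called 0 of the 7 tested members, against 0 of 9009 tested genes (0%). In that fit 97 genes had an unadjusted p under 0.05, and DESeq2, run on 23761 genes, likewise called 0 and gave 190 such genes. With the replicate number as a block, edgeR called 0.644% of the tested genes higher and 0.322% lower, and 1 member, Hhip, was among the higher ones. With the block and the GC correction together, 0.219% were called (0.104% higher, 0.115% lower), and 0 members. Since the members were chosen on this contrast, nothing is read from their count.

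The libraries numbered 2 were then set against those numbered 1, a contrast that the choice of the members did not use. In an edgeR quasi-likelihood fit with group and number, Sufu and Boc fell in the libraries numbered 2. That is 2 of 7 tested members, against 33.1% of all tested genes called (12.7% higher, 20.3% lower), so their share is close to the background. With library totals in place of TMM, 417 genes were higher and 2234 lower, against 1148 and 1830, and the same 2 members were called. Sufu was 0 and 4.88 CPM in neuron 2 and proliferating 2, against 75.3 and 116 CPM in neuron 1 and proliferating 1, with a log2 fold change of -5.05 (SE 0.95, adjusted p = 1.53e-05 in edgeR). The level was at least 15.5-fold higher in neuron 1 than in neuron 2, taking 3 counts as the limit for neuron 2. The ratio of proliferating 1 to proliferating 2 was 23.8, a rough value since proliferating 2 held 3 counts, at that limit. Boc was 8.09 and 13.0 CPM in neuron 2 and proliferating 2, against 56.4 and 253 CPM in neuron 1 and proliferating 1, with a log2 fold change of -3.22 (SE 0.74, adjusted p = 0.000405 in edgeR). Both genes were lower in 2 of 2 libraries numbered 2. The share of all tested genes that separate in this way was not counted, so nothing is read from this. In a fit of number alone without proliferating 1, Sufu kept its call at -4.50 (SE 1.21) and Boc lost it at -1.98 (SE 1.05), with an adjusted p of 0.304 in edgeR. The other 5 members did not pass, with values of -0.95 (SE 0.60) for Ptch1, -0.87 (SE 0.61) for Smo, -0.20 (SE 0.63) for Gli3, 0.26 (SE 0.88) for Hhip and 1.11 (SE 0.60) for Gas1.

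The number contrast followed the GC content of transcripts. Across 8671 tested genes, Spearman's rho between GC content and log2 fold change, number 2 over number 1, was -0.79, a description over genes that share the same libraries. Sufu and Boc, at 55.8% and 55.9% GC, lay at percentiles 84.0 and 84.6 of tested genes. Smo at 57.8% and Gas1 at 58.4% lay higher still and did not pass, and Hhip at 41.2% had the lowest value. With the GC correction, which was added after the data were seen, 4.19% of 8671 genes were called (2.41% higher, 1.78% lower) and again 2 of 7 members. Sufu kept its call at -3.18 (SE 0.93, adjusted p = 0.0434 in edgeR). Boc lost it at -1.28 (SE 0.71, adjusted p = 0.348 in edgeR), and Gas1 was called higher in number 2, at 3.68 (SE 0.60, adjusted p = 0.000262 in edgeR). Smo, at 1.57 (SE 0.57), and Hhip, at -1.21 (SE 0.84), took the other sign without passing. What the numbers stand for was not given in the labels.

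**Figure D3:**
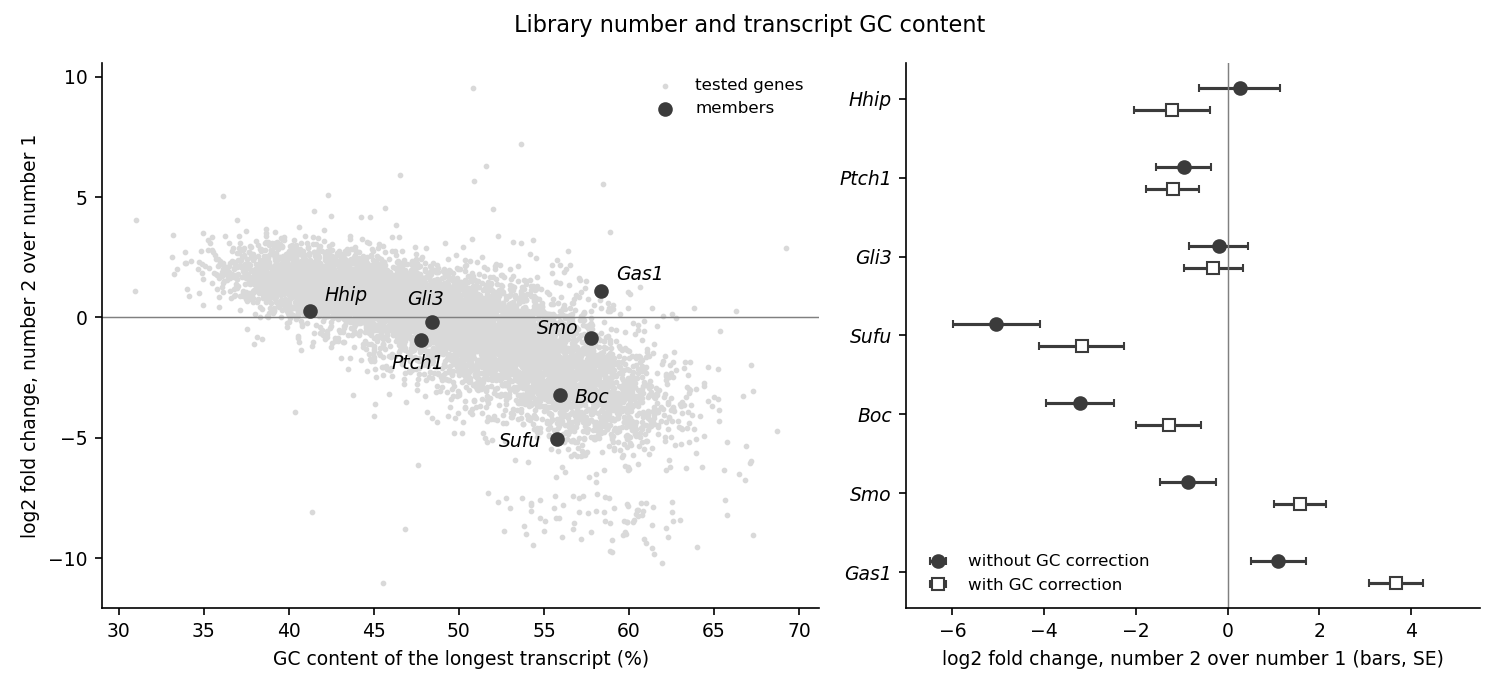
Left, log2 fold change of number 2 over number 1 against GC content of the longest transcript (%), for tested genes (grey) and the 7 tested members (dark). Right, the members ordered by GC content, before (circles) and after (squares) the GC correction, with SE bars. Sufu stands at -5.05 before and -3.18 after, Boc moves to -1.28 and Gas1 to 3.68.

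The rest of the pathway was read from lists made by role. Of 121 names, 118 were in the tables and 70 passed the count filter. In the fit with group alone, 0 rose and 0 fell in neuron, as for all tested genes (0%), and 2 had an unadjusted p under 0.05. With the replicate number as a block, 3 of the 70 were called, Gpc6 and Cep290 higher and Olig2 lower, against 0.966% of all tested genes. With the GC correction added only Olig2 was called, against 0.219%. The lists were written with earlier results of these data known, so nothing is read from these counts. In the fit with group alone the median log2 fold change of the 70 genes was 0.04, against -0.03 over all tested genes. The ligand genes were nearly silent. Shh and Dhh had 0 counts in all 4 libraries, and Ihh had 2 and 0 counts in the neuron libraries and 0 and 0 in the proliferating libraries. Disp1, which releases ligand from cells that make it, had 98 and 4 counts in neuron and 12 and 8 in proliferating, with a log2 fold change of -0.57 (SE 1.33). Its relative Disp3 had 155 and 0 counts in neuron and 12 and 3 in proliferating, with 0.00 (SE 1.48).

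Among 7 tested surface proteins besides the members, 0 were called in the fit with group alone. Gpc6, a glypican (a cell surface heparan sulfate proteoglycan), had 331 and 70 counts in neuron and 3 and 11 in proliferating, or 102 and 113 CPM in neuron and 10.3 and 17.9 CPM in proliferating. Both neuron libraries lay above both proliferating libraries, with a log2 fold change of 2.92 (SE 1.09). Mgrn1, a ubiquitin ligase that lowers the amount of Smo at the surface, had a log2 fold change of -0.54 (SE 1.17). The co-receptor Cdon, named after its values were seen, was under the filter, with 48 and 6 counts in neuron and 3 and 7 in proliferating.

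Between Smo and the GLI factors 0 of 30 tested genes were called, with a median of -0.09. The kinase genes Gsk3b and Csnk1a1, whose products mark GLI proteins for trimming, had values of -0.23 (SE 1.05) and -0.12 (SE 1.10), and Prkar1a, a regulatory subunit of protein kinase A, had -0.84 (SE 1.03). The cilium list had 0 called of 24 tested in the fit with group alone. Its median was 0.40, at 0.03 within number 1 and 1.18 within number 2. Both neuron libraries lay above both proliferating libraries in 7 of the 24 genes after TMM scaling (6 on CPM), against 9.41% of all tested genes. They lay below them in 0 genes, against 8.5%. Over all 70 tested pathway genes, 10 lay above and 4 below after TMM scaling. Nothing is read from these counts, since the lists were written with earlier results of these data known. Cep290, of the ciliary transition zone, had 108 and 169 counts in neuron and 1 and 29 in proliferating, or 33.3 and 274 CPM in neuron and 3.42 and 47.2 CPM in proliferating, so the groups overlapped, and its log2 fold change was 2.68 (SE 1.39). Dync2h1, the motor of return transport in cilia, had 1.83 (SE 1.04), and Kif3a, a motor of outward transport, had 0.44 (SE 0.97).

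Of 28 known hedgehog targets besides the members, 7 were tested and 0 were called in the fit with group alone, with a median of 0.00. Olig2, a factor of the ventral neural tube and of oligodendrocytes, had 120 and 7 counts in neuron and 68 and 168 in proliferating, or 37.0 and 11.3 CPM in neuron and 233 and 273 CPM in proliferating. Both neuron libraries were low, and the log2 fold change was -3.47 (SE 1.06). The cyclin genes Ccnd1 and Ccnd2 moved in opposite directions within the numbers. The log2 ratio of Ccnd1 was 2.76 within number 1 and -2.71 within number 2, and that of Ccnd2 was 1.70 and -0.98. Foxa2, Nkx2-2, Nkx6-1 and Foxf2 had 0 counts in all 4 libraries.

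**Figure D4:**
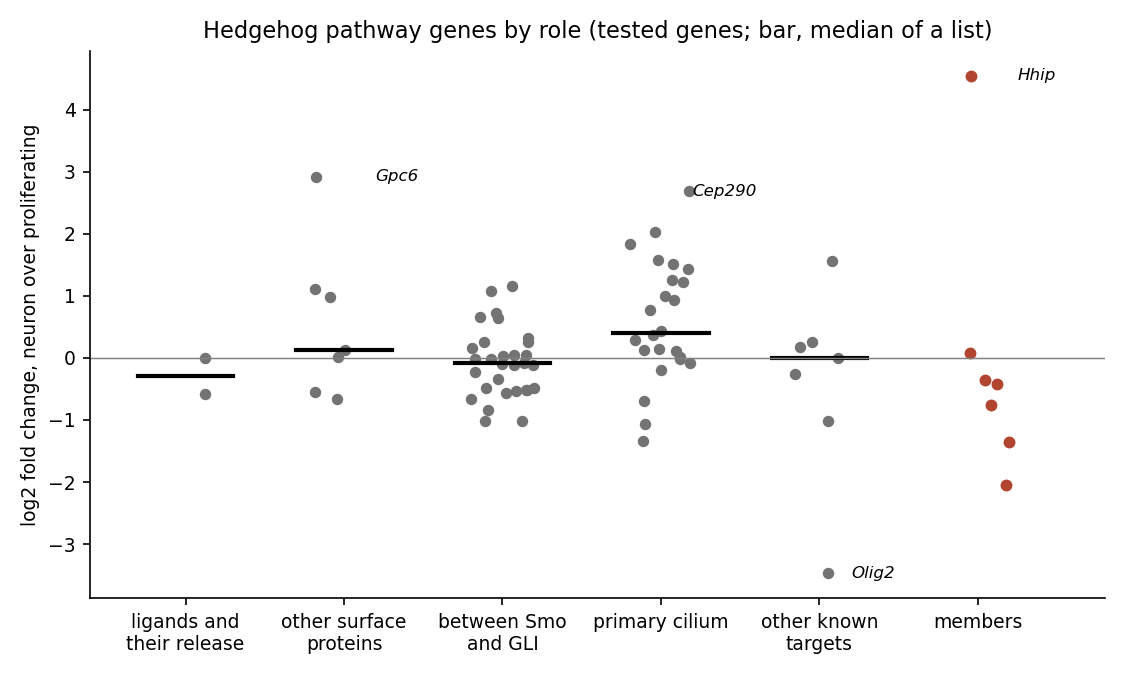
Log2 fold change, neuron over proliferating, of the tested genes of each pathway list (grey, bar at the list median) and of the 7 tested members (red). Gpc6 at 2.92, Cep290 at 2.68 and Hhip at 4.55 lie highest in their columns and Olig2 at -3.47 lowest, while the medians of the lists lie between -0.29 and 0.40.

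By the Euclidean distance between centred log2 CPM values over the 4 libraries, the named genes with the pattern most like Hhip were Adamts20, Camk4, Brip1, Nalcn and Ttk. Adamts20, a secreted metalloprotease gene, was nearest at a distance of 0.52, with 155 and 25 counts in neuron and 0 and 1 in proliferating. The others lay at 1.33 to 1.40, among them the calcium-activated kinase gene Camk4 with 84 and 34 counts in neuron and 0 and 3 in proliferating, and the mitotic kinase gene Ttk with 184 and 66 in neuron and 1 and 7 in proliferating. Likeness over 4 libraries is a description, and the proliferating libraries held 7 or fewer counts of each of these genes.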

How the data were processed

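Total RNA of 4 libraries was depleted of ribosomal RNA and made into stranded libraries, per the labels' protocols. The authors deposited raw counts per gene and RPKM values, 1 file of each per library. Tools named in the submitters' processing notes were HISAT2, SAMtools, featureCounts and DESeq2, with build mm10. Their versions, the annotation and the strand setting are not stated there. Dividing deposited counts by deposited RPKM and by library totals gave 1 length per gene within a relative tolerance of 0.001, which was used for levels per kilobase.

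After 7 ribosomal and rRNA-like genes were set aside, counts were fitted with edgeR 4.0.16 (R 4.3.3; TMM, filterByExpr, quasi-likelihood test, Benjamini-Hochberg threshold 0.05; 9009 genes), with group alone, or with group and number for the number contrast. SE is the log2 fold change over the square root of F. Tested on simulated data, the fit with group alone made no calls at these group sizes, so its lack of calls says little, while the fits with number found most of the largest changes. Alternatives used DESeq2 1.42.0, limma 3.58.1, other scalings and filters, and a GC correction (spline with 5 degrees of freedom). The members and lists were chosen with earlier results of these data known. By rule, each list named its called genes, also those of the fit with the number as a block, and its 3 highest tested genes. Gene positions and GC content came from GENCODE M21 (mm10), promoter sequences from RefSeq (GRCm38.p6). A GC value was found for 96.2% of tested genes. Intervals cover counting error only. Some genes that the rule names are not reported here.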

Additional observations from a re-analysis of the deposited data

How the results depend on the processing

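With group alone, 0 genes, 0 pathway genes and 0 members were called under every scaling, filter, tool, pseudocount and left-out library run, and with the GC correction. With the replicate number as a block, 87 of 9009 genes (0.966%, 58 higher, 29 lower) were called. Among them were 3 of 70 tested pathway genes (Gpc6 and Cep290 higher, Olig2 lower) and 1 of 7 tested members, Hhip at 4.54 (SE 1.05). With the block and the GC correction together, chosen after the data were seen, 19 genes (0.219%), 1 pathway gene (Olig2) and 0 members were called. Hhip was then at 3.84 (SE 1.00). Libraries with the same number deviated together from their group means (correlation 0.74 over tested genes), but the labels do not say what the numbers mark, so this pairing is a hint from the data. For the number contrast, 2978 genes were called with TMM, 1901 with no filter, 1804 with DESeq2 and 363 with the GC correction. With library totals alone 417 were higher and 2234 lower, against 1148 and 1830 with TMM, and the median of all genes was -0.35 in place of 0.10. With a library left out, the fit with group and number keeps no residual degrees of freedom. Number alone, fitted without each library in turn (chosen after the data were seen, the lone library assumed to vary like the others), called 517 genes without proliferating 1, 844 without neuron 1, 1988 without neuron 2 and 2934 without proliferating 2, and 1 to 4 members. Without neuron 2, where number 2 is a proliferating library only, Hhip was called lower at -3.04. For neuron over proliferating, Hhip ranged over 3.83 to 9.32 with 1 library left out, and Sufu over -7.75 to 2.63. Sufu was positive without proliferating 1 (2.63) and without neuron 2 (0.21). The values 9.32 (Hhip without proliferating 2) and -7.75 (Sufu without neuron 1) rest on a lone library with 0 counts, so their size is not measured. On log2(RPKM + 0.1) the median of all genes was 0.81, and Ptch1, Smo and Gli3 then had positive values of up to 0.93, near that median, while Hhip had 2.58 and Gas1 -0.16. On log2(RPKM + 1) the median was 0.34, Hhip had 0.62 and Gas1 -0.14. The deposited RPKM values scale to library totals that include the ribosomal and rRNA-like counts, whereas the CPM values leave these counts out. The cause of these differences was not tested. At 292302 usable counts in proliferating 1, 0 counts of a gene there allows a level of up to about 10.3 CPM (counting error only).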
